A study of Mus musculus with 4 samples.

Results

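The endothelin system of the mouse aorta was followed through 4 genes: Edn1, which encodes the precursor of endothelin-1, Ece1, which encodes the membrane protease that releases the active peptide, and Ednra and Ednrb, which encode the receptors ETA and ETB. The 4 genes were chosen by symbol out of 32285 measured features, and all 4 were found in every library. Ednrb was chosen because its level was higher in LysM-DKO macrophages than in WT macrophages on both diets, so that pair of differences is given as a description and supports nothing. Values of Ednrb in macrophage subsets, in other selections of macrophages and between diets in macrophages rest on the same UMIs and are descriptions too. The choice did not use Edn1, Ednra, Ece1 or Ednrb in other classes, although earlier results on these data were known.

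Endothelin-1 is among the strongest known constrictor peptides of blood vessels and is made mainly by endothelial cells, which release it toward the vessel wall. ETA on smooth muscle couples through Gq proteins to calcium release and contraction. ETB on endothelium couples to nitric oxide production, which relaxes the vessel, and it also removes endothelin-1 from the circulation. Outside vessels, ETB is best known for its part in the development of melanocytes and enteric neurons from neural crest.

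Single-cell RNA of digested whole aortas was counted in 4 droplet libraries of the 10x Genomics 3' type, 1 library per group, and the labels do not say how many mice each library holds or what age they were. Normal diet was fed to the groups WT and LysM-DKO, and western diet to the groups WT/ApoE-/- and LysM-DKO/ApoE-/-. Wherever 4 values stand in a row, they follow this order. The ApoE-/- background was shared by both western diet groups and absent from both normal diet groups. What LysM-DKO stands for is not spelled out in the labels. LysM is an older name of lysozyme M, the product of Lyz2 in mice, whose promoter is widely used to drive Cre in monocytes, macrophages and neutrophils. Because each group is 1 library, groups could not be tested against each other and no p-value is given. Every interval covers counting error at the 95% level and leaves out how animals or preparations vary. Intervals of levels and ratios also leave out how the UMIs of a gene cluster in single barcodes. Genotype ratios are log2 of the LysM-DKO level divided by the WT level, with the normal diet value first.

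The deposited matrices held 13831, 15826, 29724 and 11414 barcodes, of which 7758, 8230, 13744 and 8133 had at least 1000 unique molecular identifiers (UMIs, each standing for 1 captured RNA molecule) and at most 10% mitochondrial UMIs. Their median depth was 4167, 3404, 2103 and 6761 UMIs, and any pair of libraries shared 9 to 41 of these barcodes. Apoe was at 549, 946, 4.47 and 1.92 CPM (UMIs scaled to the same total in every library or class), and Xist, the RNA of the inactive X chromosome in females, was at 950, 950, 0.636 and 0.563 CPM. Diet, ApoE genotype and the sex of the cells therefore moved together and cannot be told apart in any contrast between diets. Lyz2 in macrophage barcodes was at 3696 and 4126 CPM in the WT libraries and at 977 and 798 CPM in the LysM-DKO libraries, on normal and western diet.

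Each barcode took the first class that it matched: macrophage with at least 5 UMIs of C1qa, C1qb and C1qc together, endothelial with at least 2 of Pecam1 and Cdh5, fibroblast with at least 3 of Pdgfra and Serpinf1, and smooth muscle with at least 3 of Myh11 and Cnn1. This gave 92, 208, 939 and 135 macrophage barcodes, 798, 981, 426 and 417 endothelial barcodes, 641, 775, 642 and 658 fibroblast barcodes, and 4558, 4598, 8973 and 6652 smooth muscle barcodes. The macrophage class had a summed level of 2117 to 3489 CPM for 6 macrophage markers that the rule did not use (Csf1r, Cd68, Adgre1, Mrc1, Fcgr1 and Cd14), against 11.4 to 44.6 CPM in the smooth muscle class. The endothelial class was less pure. Of its barcodes, 78.1%, 69.8%, 75.6% and 83.2% also matched smooth muscle, and its 6 check markers of endothelium (Vwf, Tie1, Kdr, Egfl7, Cldn5 and Eng) summed to 531, 710, 176 and 262 CPM beside 24930, 19232, 18261 and 23975 CPM for 6 smooth muscle markers. The 152, 276, 82 and 51 endothelial barcodes that matched no other class had endothelial markers at 1717, 1773, 674 and 1356 CPM. Of the macrophage barcodes, 56.5%, 61.5%, 41.9% and 34.1% also matched smooth muscle. Values over single-match barcodes, that is, those that matched only 1 of the 4 classes, are therefore given beside the main ones. Free RNA was not removed from these counts, and its part in the results was not tested. With the barcodes of highest doublet score left out, each of the 14 genotype ratios recomputed stayed within the counting interval of its main value.

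Edn1 lies on chromosome 13 at 42301476 to 42307990 on the plus strand (ENSMUSG00000021367), Ednra on chromosome 8 at 77663031 to 77724464 on the minus strand (ENSMUSG00000031616), Ednrb on chromosome 14 at 103814625 to 103844402 on the minus strand (ENSMUSG00000022122) and Ece1 on chromosome 4 at 137862237 to 137965229 on the plus strand (ENSMUSG00000057530), on GRCm38 with the GENCODE M21 annotation. An opposite-strand gene overlaps Edn1 (Gm47118), Ednra (4933431K23Rik) and Ece1 (Gm13012), and none overlaps Ednrb. The 250 bases before the RefSeq start of the ligand gene and of the receptor chosen for its macrophage difference are shown because the results turn most on these 2 genes. The Edn1 window (chr13:42301226-42301475, plus strand) and the Ednrb window (chr14:103843702-103843951, minus strand), both from RefSeq on GRCm38 and free of GENCODE exons, read as follows 5′ to 3′, with capitals for matches on either strand to CACCC, a core bound by KLF factors.
Edn1: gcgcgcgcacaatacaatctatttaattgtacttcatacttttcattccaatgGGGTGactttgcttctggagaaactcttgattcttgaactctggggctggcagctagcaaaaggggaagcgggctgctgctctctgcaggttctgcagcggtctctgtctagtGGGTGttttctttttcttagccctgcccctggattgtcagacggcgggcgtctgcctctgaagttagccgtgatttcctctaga
Ednrb: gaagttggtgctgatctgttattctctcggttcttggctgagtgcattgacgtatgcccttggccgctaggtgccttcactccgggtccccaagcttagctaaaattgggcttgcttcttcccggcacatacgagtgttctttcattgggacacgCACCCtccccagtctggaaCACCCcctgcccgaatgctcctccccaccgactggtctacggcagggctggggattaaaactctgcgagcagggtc
Both windows held 2 CACCC matches, which began 197 and 84 bases before the start of Edn1 and 95 and 76 bases before that of Ednrb. CACCC was present in 52.0% of 32851 windows of the same length, so its presence was common. The AP-1 letters TGANTCA (6.75% of windows), the GATA letters AGATAA (9.99%), the hypoxia response letters ACGTG (16.6%) and the FOXO letters GTAAACA (3.17%) were in neither window. A match or its lack describes these letters in these 250 bases only. Sequence after the RefSeq start was not searched, and whether transcription begins there in these cells was not tested. A lack of letters in the Edn1 window thus does not show that the gene lacks such sites nearby.

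Edn1, the ligand gene, was higher in the endothelial class than in the 3 other main classes of every library. Among single-match barcodes this held in 3 libraries, while in LysM-DKO on normal diet macrophages were at 93.0 CPM and endothelial barcodes at 89.8 CPM. It was at 78.3 (71.1 to 86.0), 80.2 (73.1 to 87.9), 49.7 (42.6 to 57.5) and 104 (93.3 to 115) CPM there, from 438, 466, 178 and 368 UMIs. In smooth muscle barcodes it was at 50.2, 35.4, 23.0 and 24.8 CPM from 1360, 798, 803 and 1200 UMIs, which made up 69.6%, 54.7%, 73.2% and 72.9% of all Edn1 UMIs because the class is so large. Fibroblasts were at 17.7, 19.98, 5.30 and 14.1 CPM. B cell barcodes, which should lack the gene, stood at 13.7, 8.69, 0 and 0 CPM. Endothelial and smooth muscle levels of Edn1 were thus above the B cell level in both normal diet libraries, and fibroblasts were nearer to it. By share of barcodes with a UMI, B cells were at 4.36%, 3.21%, 0% and 0% (median depth 2636, 2946, 1858 and 2047 UMIs), against 20.1%, 19.6%, 12.2% and 19.4% in the endothelial class (6583, 4681, 7296 and 7783 UMIs). After each barcode was thinned to 1000 UMIs, the endothelial shares were 6.07%, 6.79%, 3.49% and 7.70% and the B cell shares 1.54%, 0.958%, 0% and 0%. The 0 of 435 B cell barcodes in the WT/ApoE-/- library allows a share of up to 0.690%, and the 10 B cell barcodes of the last library allow no reading.

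**Figure D1:**
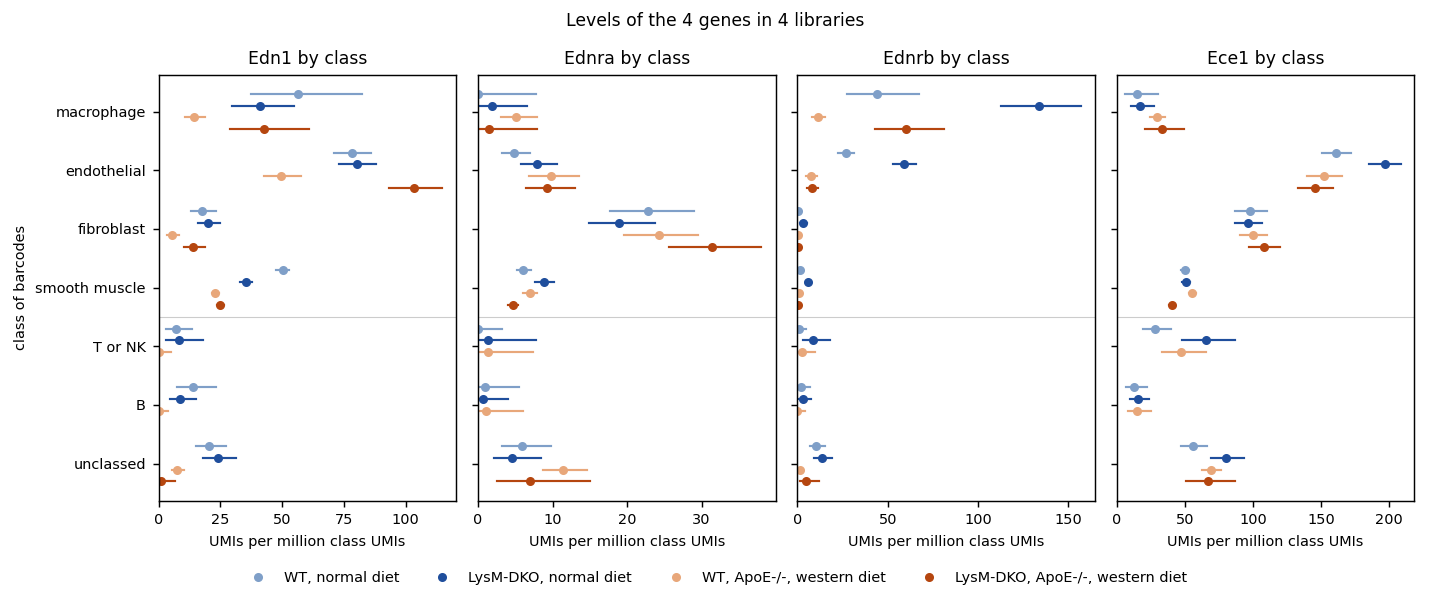
Level of Edn1, Ednra, Ednrb and Ece1 (x axis, CPM) in each cell class (y axis), 1 point per library with its 95% counting interval, leaving out classes with under 50 barcodes in that library. Edn1 and Ece1 were highest in endothelial barcodes, Ednra in fibroblasts, and Ednrb in macrophages and endothelial barcodes.

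Edn1 counts were unevenly spread over endothelial barcodes. Only 24, 25, 10 and 18 barcodes held 5 or more Edn1 UMIs, and these held 50.2%, 43.1%, 63.5% and 70.9% of the endothelial Edn1 UMIs. The highest single barcodes held 35, 42, 21 and 71 UMIs. A small set of strongly positive barcodes thus carried much of the signal in each library, and the western diet libraries depended on it most. Within the endothelial class, Edn1 was at 103, 66.3, 39.0 and 30.6 CPM in capillary-like barcodes (at least 2 UMIs of Gpihbp1, Cd36, Car4 and Rgcc), at 45.3, 58.1, 0 and 77.6 CPM in lymphatic-like barcodes (at least 2 of Mmrn1, Prox1 and Flt4), and at 72.6, 87.6, 52.2 and 113 CPM in the rest. The order of the subsets differed between the libraries.

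Between genotypes, endothelial Edn1 was almost level on normal diet, with a genotype ratio of 0.04 (-0.16 to 0.23), and was 2.09 times as high in LysM-DKO/ApoE-/- as in WT/ApoE-/- on western diet, a log2 ratio of 1.06 (0.80 to 1.33). A ratio of at least 2-fold in that direction was seen for 2.89% of the 11795 genes measured in endothelial barcodes on western diet and for 3.59% of those on normal diet. In single-match barcodes Edn1 was at 226, 89.8, 129 and 458 CPM, which gave genotype ratios of -1.33 (-1.74 to -0.92) and 1.82 (1.37 to 2.29). The normal diet ratio therefore depended on which barcodes were taken as endothelial, and the western diet ratio stayed above 0 under both. On western diet the single-match values rest on 59 UMIs in 82 WT/ApoE-/- barcodes and 132 UMIs in 51 LysM-DKO/ApoE-/- barcodes. The endothelial check markers of these barcodes also differed, at 674 and 1356 CPM, and their part in the ratio was not tested. Without barcodes of 5 or more Edn1 UMIs the ratios were 0.23 and 0.78. Edn1 in smooth muscle differed the other way on normal diet, with a log2 ratio of -0.50 (-0.63 to -0.38), and was nearly level on western diet, at 0.11 (-0.02 to 0.24). Edn1 is rapidly induced in many cells, and 9 dissociation stress genes (among them Fos, Jun, Egr1 and Atf3) had a median log2 ratio in smooth muscle of -0.61 on normal diet, with 0 of 9 above 0, and of 0.06 on western diet, with 6 of 9 above 0. In endothelial barcodes that median was -0.34 (0 of 9 above 0) and 0.22 (7 of 9). Over all genes in smooth muscle, 8517 of 15863 and 7390 of 15620 were above 0, with medians of 0.02 and -0.02. Over all genes in endothelial barcodes, 6771 of 13245 and 6208 of 11795 were above 0, with medians of 0.01 and 0.01. The stress genes and Edn1 in smooth muscle moved in the same direction on normal diet, and their part in the Edn1 values was not tested.

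Macrophage barcodes had Edn1 at 56.5, 40.9, 14.3 and 42.7 CPM, from 27, 45, 56 and 30 UMIs. The genotype ratio was -0.48 (-1.19 to 0.28) in normal diet macrophages and 1.59 (0.89 to 2.24) in western diet macrophages. Few barcodes set these values: in the normal diet LysM-DKO library 1 barcode held 23 of the 45 UMIs. In single-match macrophages Edn1 was at 15.9, 93.0, 9.87 and 57.9 CPM from 3, 30, 23 and 22 UMIs, with genotype ratios of 2.35 (0.86 to 4.90) and 2.55 (1.64 to 3.46). The direction on normal diet thus turned with the choice of barcodes, and the same barcode of 23 UMIs was among these 30. On normal diet the 9 dissociation stress genes had a macrophage median log2 ratio of -0.49, with 0 of 9 above 0. On western diet it was 0.61, with 7 of 9 above 0. All genes had medians of 0.05 and -0.05, with 3850 of 7068 and 4804 of 10418 above 0. The part of the stress genes in macrophage Edn1 was not tested.

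Ece1, the gene of the converting enzyme, was likewise highest in endothelial barcodes in all 4 libraries. Its level was 161 (151 to 172), 197 (185 to 208), 152 (140 to 165) and 146 (133 to 159) CPM in the endothelial class, 97.9, 96.5, 99.9 and 108 CPM in fibroblasts and 49.9, 51.0, 55.3 and 40.3 CPM in smooth muscle. The order endothelial, fibroblast, smooth muscle held in each library, with intervals that did not overlap between neighbours. Single-match endothelial barcodes had more than the class as a whole, at 389, 394, 348 and 496 CPM.

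Over all barcodes of the endothelial class, Ece1 was highest in lymphatic-like barcodes. These had 491 (413 to 579), 660 (590 to 737), 1283 (859 to 1842) and 559 (391 to 773) CPM, against 155, 218, 153 and 156 CPM in capillary-like barcodes and 140, 133, 143 and 136 CPM in the rest. The WT/ApoE-/- value came from 3 barcodes and 29 UMIs. The single-match level of the whole endothelial class, given above, exceeded the capillary-like level and that of the rest in each library. The size of the gap to these subsets thus depended on the barcodes taken, and single-match subset levels of Ece1 are not given. Lymphatic-like barcodes made up 5.76%, 10.8%, 0.704% and 3.12% of the endothelial class, so the class level of Ece1 on normal diet was read beside an unequal makeup. With the subsets set to the shares of the WT library, the normal diet log2 ratio of endothelial Ece1 was 0.16 in place of 0.29 (0.16 to 0.42). In single-match barcodes it was 0.01 (-0.23 to 0.26), so no difference was resolved there. On western diet the log2 ratio was -0.06 (-0.24 to 0.11) over the class and 0.51 (0.17 to 0.85) in single-match barcodes. In fibroblasts the ratios were -0.02 (-0.25 to 0.21) and 0.11 (-0.10 to 0.32), and in smooth muscle 0.03 (-0.08 to 0.14) and -0.46 (-0.55 to -0.36).

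Macrophages had less Ece1 than the 3 other main classes, at 14.7, 17.3, 29.7 and 32.8 CPM from 7, 19, 116 and 23 UMIs. B cells were at 12.8, 15.2, 15.0 and 0 CPM and T or NK cells at 28.2, 65.2, 47.3 and 20.4 CPM. The macrophage level was below that of T or NK cells in the first 3 libraries. It was above that of B cells in each library, where the last holds only 10 B cell barcodes. On normal diet the gap to B cells was not resolved, with 7 and 19 macrophage UMIs and 13 and 21 B cell UMIs. The macrophage genotype ratios of Ece1, 0.17 (-1.08 to 1.73) and 0.17 (-0.57 to 0.80), were not resolved from 0.

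Ednra, the receptor gene for ETA, was highest in fibroblasts and not in smooth muscle. Fibroblasts had 22.8 (17.7 to 28.9), 18.9 (14.8 to 23.8), 24.2 (19.6 to 29.6) and 31.4 (25.7 to 38.0) CPM, from 67, 73, 96 and 105 UMIs. Smooth muscle had 6.09 (5.20 to 7.09), 8.83 (7.64 to 10.1), 6.93 (6.08 to 7.86) and 4.66 (4.07 to 5.31) CPM, from 165, 199, 242 and 225 UMIs. The fibroblast level was above the smooth muscle level in all 4 libraries, with intervals that did not overlap. Single-match fibroblasts were at 28.1, 24.4, 29.4 and 34.2 CPM. Macrophages held 0, 2, 20 and 1 Ednra UMIs, and B and T or NK cells held 0 or 1 in each library. Endothelial barcodes were at 4.83, 7.92, 9.77 (6.80 to 13.6) and 9.29 (6.40 to 13.05) CPM, with an interval above that of smooth muscle in the last library only, and lymphatic-like barcodes held 0, 1, 0 and 0 Ednra UMIs.

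The smooth muscle barcodes with a detected Ednra UMI were few, 2.94%, 2.96%, 2.44% and 2.92% at median depths of 5340, 3685, 2222 and 6972 UMIs. T or NK cells, which should lack it, were at 0%, 0.532%, 0.325% and 0%, from 0, 1, 1 and 0 barcodes. Thinned to 1000 UMIs, the smooth muscle shares were 0.566%, 0.762%, 0.753% and 0.487%. Smooth muscle with at least 2 UMIs of Rgs5, a regulator of G protein signalling high in pericytes and some arterial muscle, had Ednra at 7.84, 10.6, 8.69 and 4.33 CPM, and smooth muscle below that had 4.92, 7.38, 4.75 and 5.43 CPM. The high-Rgs5 barcodes were above the others in 3 of 4 libraries and below them in LysM-DKO/ApoE-/-, where the intervals (3.66 to 5.09 and 4.29 to 6.78 CPM) overlapped.

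Between genotypes, smooth muscle Ednra was higher in LysM-DKO on normal diet, with a log2 ratio of 0.53 (0.23 to 0.84), and lower on western diet, at -0.57 (-0.84 to -0.31). Neither reached 2-fold. At least 2-fold higher genes were 7.09% of 15863 on normal diet, and at least 2-fold lower genes were 9.9% of 15620 on western diet. The western difference was seen in the high-Rgs5 barcodes, with a log2 ratio of -1.0 (-1.33 to -0.68), against 0.19 (-0.28 to 0.67) in the others. The difference between these ratios was not tested. The Rgs5 cut is a UMI count and so depends on depth, which differed between these libraries. High-Rgs5 barcodes were 49.1% of smooth muscle in WT/ApoE-/- and 68.7% in LysM-DKO/ApoE-/-. The fibroblast log2 ratios were -0.27 (-0.76 to 0.23) and 0.37 (-0.04 to 0.79), which was not resolved from 0 on either diet.

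**Figure D2:**
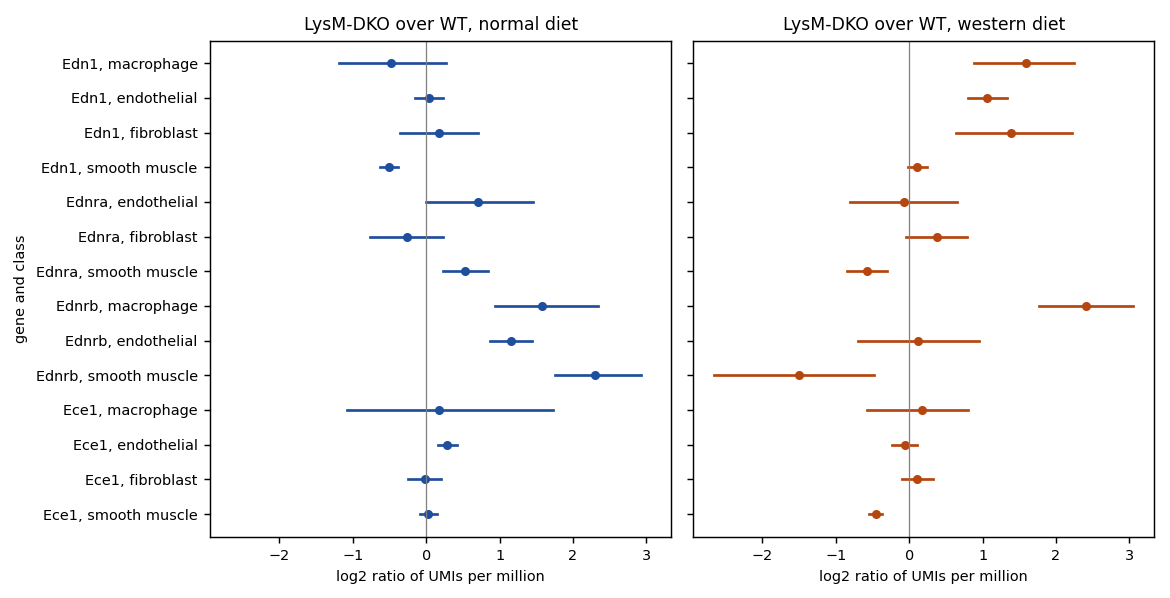
Genotype ratio (x axis, log2 of the LysM-DKO level divided by the WT level) on normal and western diet for the 4 genes in the main classes, each point with its 95% counting interval, and a line at 0 for equal levels. Ednrb in macrophages, the difference that chose the gene, lay at 1.57 and 2.41, while Ednra in smooth muscle lay on opposite sides of 0.

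Ednrb, the receptor gene for ETB, had a total of 231, 681, 108 and 87 UMIs over all kept barcodes, which was few. Endothelial barcodes held 64.5%, 50.5%, 24.1% and 32.2% of them and macrophages 9.09%, 21.6%, 40.7% and 48.3%, although macrophages were at most 6.83% of the barcodes of a library. In macrophages Ednrb was at 44.0 (27.2 to 67.2), 134 (113 to 157), 11.2 (8.17 to 15.1) and 59.8 (43.1 to 80.9) CPM, from 21, 147, 44 and 42 UMIs. By these values, which chose the gene, LysM-DKO macrophages were 3.04 and 5.32 times as high as WT macrophages on normal and western diet, log2 ratios of 1.57 and 2.41. Single-match macrophages were at 26.6, 245, 11.6 and 44.7 CPM, again with LysM-DKO above WT on each diet. Of 6997 genes measured in macrophages on both diets, 0.272% were at least 2-fold higher in LysM-DKO on both, and nothing is read from Ednrb being among them.

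Macrophage barcodes with an Ednrb UMI were a minority in every library, at 8.70% (3.83% to 16.4%), 27.4%, 2.13% and 11.9% (exact binomial interval in the first case). T or NK cells were at 0.358%, 1.60%, 0.649% and 0%, at median depths of 3956, 3366, 2144 and 2240 UMIs against 4709, 4715, 2796 and 4025 UMIs in macrophages. Thinned to 1000 UMIs, the macrophage shares were 3.87%, 12.9%, 0.888% and 7.49%, and the T or NK shares 0.0867%, 0.587%, 0.243% and 0%. The macrophage share was above that of T or NK cells in the first 3 libraries at this matched depth. In WT/ApoE-/- the T or NK share rests on 2 Ednrb UMIs, too few to resolve the gap there. The 0 of 21 T or NK barcodes in the last library allows a share of up to 14.3%, so no reading is possible in that library. Just inside the class threshold, the barcodes with 5 or 6 C1q UMIs held 1, 0, 0 and 0 Ednrb UMIs (7, 10, 205 and 0 barcodes), and just outside it those with 3 or 4 held 4, 0, 4 and 0 (8, 20, 385 and 1 barcodes).

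The macrophage Ednrb UMIs came mostly from 1 subset. Macrophages were split into foamy-like barcodes (at least 2 UMIs of Gpnmb, Trem2 and Mmp12), resident-like barcodes (not foamy, with at least 2 UMIs of Lyve1, Folr2 and Cd163, genes of perivascular and adventitial tissue macrophages) and the rest. Resident-like barcodes held 21 of 21, 96 of 147, 28 of 44 and 37 of 42 Ednrb UMIs, from 52, 76, 28 and 47 barcodes. Within them Ednrb was at 80.4 (49.8 to 123), 284 (230 to 347), 269 (179 to 389) and 254 (179 to 350) CPM. WT on normal diet was the low library, and the other 3 libraries had overlapping intervals. Foamy-like barcodes, which carry genes of lipid-loaded plaque macrophages, were at 0, 44.0, 4.32 and 10.8 CPM from 0, 12, 11 and 5 UMIs, and the rest at 0, 79.5, 3.96 and 0 CPM.

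**Figure D3:**
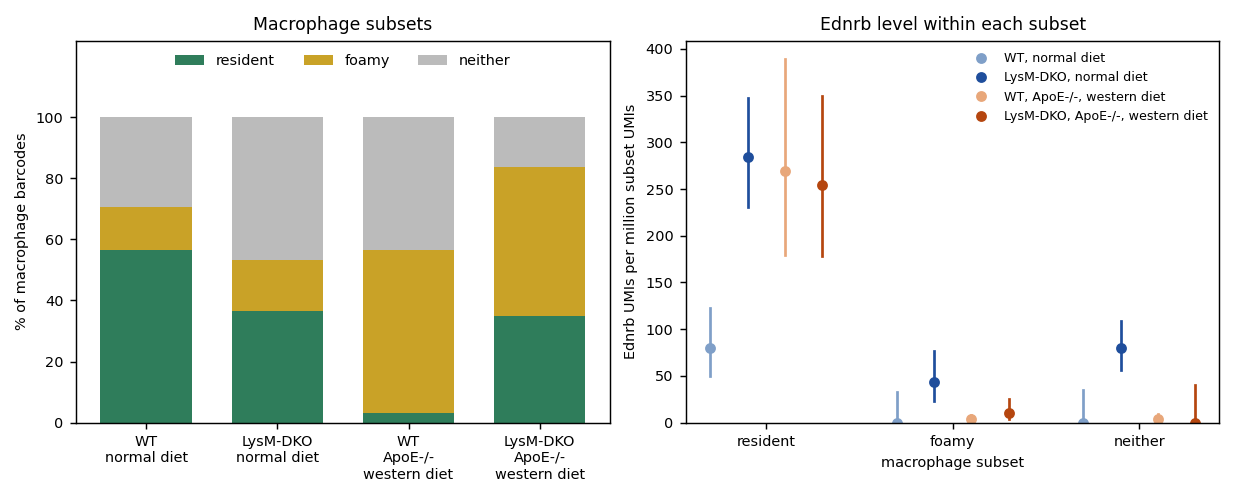
Ednrb in macrophage subsets: level in each subset (CPM with 95% counting intervals) and share of macrophage barcodes in each subset, for the 4 libraries. Resident-like barcodes had 254 to 284 CPM in 3 libraries and 80.4 CPM in WT on normal diet, while their share of macrophages ran from 2.98% to 56.5%.

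The makeup of the macrophage class also differed between the libraries. Resident-like barcodes were 56.5% (45.8% to 66.8%), 36.5% (30.0% to 43.5%), 2.98% (1.99% to 4.28%) and 34.8% (26.8% to 43.5%) of macrophages, and foamy-like barcodes 14.1%, 16.8%, 53.6% and 48.9%. On western diet the resident-like level was not resolved between genotypes, with a log2 ratio of -0.09 (-0.83 to 0.68), beside 6.34% of genes at least 2-fold higher in that subset. The whole-class ratio of 2.41 became 0.29 when the subsets of both libraries were given the shares of WT/ApoE-/-. On normal diet the resident-like ratio was 1.80 (1.13 to 2.58), beside 3.27% of genes at least 2-fold higher in the subset, and the whole-class ratio of 1.57 became 2.06 at the shares of WT. On that diet the resident-like share was lower in LysM-DKO, in which the class level was higher. The difference between the resident-like ratios of the 2 diets was not tested. Splitting by Folr2 and Cd163 alone gave resident-like levels of 74.9, 299, 255 and 288 CPM, and single-match resident-like barcodes had 62.0, 369, 235 and 197 CPM, with the same library low. With at most 76 barcodes behind each resident-like value and 1 library per group, animals, preparation and genotype cannot be told apart here.

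Macrophages with an Ednrb UMI had more of the tissue-resident genes than those without one. Lyve1, a hyaluronan receptor, was at 791, 435, 704 and 1541 CPM in the 8, 57, 20 and 16 positive barcodes and at 215, 107, 19.4 and 191 CPM in the others. Folr2, a folate receptor, was at 791, 479, 394 and 1208 against 162, 114, 120 and 73.4 CPM, and Mrc1, the mannose receptor, which took no part in the split, was at 1904, 2097, 1999 and 2416 against 1011, 707, 209 and 630 CPM. Mrc1 was higher in the positive barcodes of all 4 libraries. Lyve1 also marks lymphatic endothelium. Of its defining genes, Prox1 had 1, 0, 0 and 0 UMIs in these few positive macrophages, and Mmrn1 and Flt4 had 0 in every library. Ece1, abundant in lymphatic-like endothelium, was at 0.0952, 0.0833, 0.107 and 0.0270 UMIs per Ednrb UMI in resident-like macrophages. In lymphatic-like endothelial barcodes it was at 2.88, 1.85, 1.71 and 2.12. In the positive macrophages Ece1 was at 0, 39.9, 0 and 41.7 CPM, against 16.02, 10.6, 30.4 and 32.1 CPM in the others. The positive values rest on 0, 10, 0 and 2 Ece1 UMIs. Cdh5 was at 24.7, 19.97, 0 and 0 CPM from 1, 5, 0 and 0 UMIs, against 0, 11.8, 0.524 and 3.06 CPM. Pecam1 was at 74.2, 51.9, 41.4 and 62.5 against 54.9, 71.7, 19.9 and 44.4 CPM. Carry-over of endothelial RNA was not tested.

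In endothelial barcodes Ednrb was at 26.6 (22.5 to 31.3), 59.2 (53.1 to 65.8), 7.25 (4.74 to 10.6) and 7.88 (5.24 to 11.4) CPM, from 149, 344, 26 and 28 UMIs. The genotype ratio was 1.15 (0.87 to 1.44) with normal diet and 0.12 (-0.70 to 0.95) with western diet. In single-match barcodes Ednrb was at 71.1, 98.1, 43.8 and 76.3 CPM, with ratios of 0.45 (-0.08 to 1.04) and 0.80 (-0.14 to 1.75), so neither was resolved from 0 there. The receptor was concentrated in lymphatic-like and capillary-like barcodes. Lymphatic-like barcodes had 171 (126 to 226), 357 (306 to 415), 752 (438 to 1204) and 264 (154 to 422) CPM from 46, 106, 3 and 13 barcodes, capillary-like barcodes had 70.0, 114, 13.6 and 27.8 CPM, and the rest had 2.49, 4.77, 0.337 and 0.320 CPM. The rest, which were 67.2%, 62.0%, 86.6% and 88.7% of the class, held 10, 19, 1 and 1 Ednrb UMIs. In WT/ApoE-/- the lymphatic-like value rests on 17 UMIs in 3 barcodes. Leaving out the 1 barcode with most Ednrb UMIs took the endothelial class of that library from 26 to 14 UMIs. The lymphatic-like level was above the capillary-like level in all 4 libraries without overlap of the counting intervals, which leave out spread between barcodes. In single-match barcodes this order turned in WT on normal diet, with 104 (49.7 to 191) CPM in 17 lymphatic-like and 157 (106 to 224) CPM in 69 capillary-like barcodes, and it held in the other 3 libraries. On normal diet the lymphatic-like ratio was 1.06 (0.60 to 1.56) and the capillary-like ratio 0.70 (0.32 to 1.10), and with the subsets at the WT shares the class ratio was 0.85. In single-match barcodes the lymphatic-like ratio was 1.61 (0.65 to 2.83) and the capillary-like ratio -0.72 (-1.43 to 0.01), so the capillary-like direction depended on the barcodes taken.

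**Figure D4:**
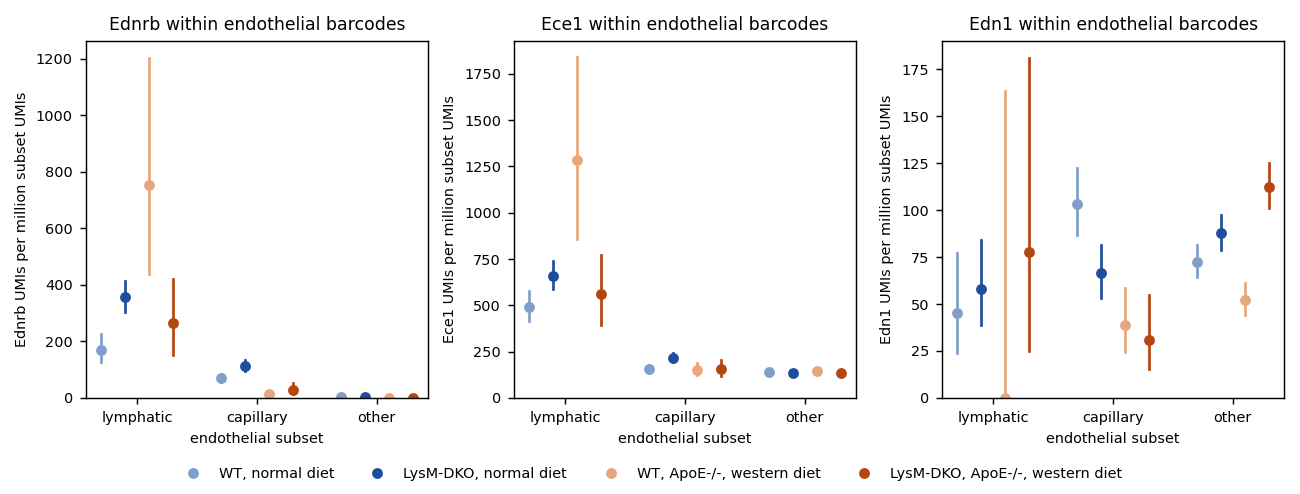
Level (CPM with 95% counting intervals) of Ednrb, Ece1 and Edn1 in lymphatic-like, capillary-like and other endothelial barcodes of each library. Ednrb was at 0.320 to 4.77 CPM in the other barcodes, Ece1 was highest in lymphatic-like barcodes (491 to 1283 CPM), and Edn1 was detected in all 3 subsets of 3 of the 4 libraries.

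Smooth muscle had almost no Ednrb, at 1.18, 5.90, 0.716 and 0.248 CPM from 32, 133, 25 and 12 UMIs, and fibroblasts held 1, 11, 1 and 1 UMIs. The smooth muscle shares with a UMI, 0.548%, 1.91%, 0.256% and 0.180%, were close to those of T or NK cells, compared without thinning to a matched depth. Whether these UMIs were free RNA was not tested. The LysM-DKO library on normal diet, which had the most Ednrb UMIs, was also the highest in smooth muscle, T or NK cells and fibroblasts. The genotype ratios of 2.30 (1.75 to 2.92) and -1.50 (-2.65 to -0.48) are therefore given as values only.

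Genes with the most similar profile to each of the 4 were taken over 27 profiles of library and class with at least 50 barcodes, by Pearson correlation of log2(CPM + 10) among 12022 genes. These profiles share libraries, so the coefficients are descriptions. The nearest to Edn1 were Jup (0.824), Dusp1 (0.821) and Cbr2 (0.819), the nearest to Ednra were Fbln7 (0.953), L3hypdh (0.940) and Clec11a (0.932), the nearest to Ednrb were Cd36 (0.875), Stard8 (0.844) and Rhbdf2 (0.827), and the nearest to Ece1 were Jcad (0.912), Efnb1 (0.886) and Sptbn1 (0.882). Cd36, a fatty acid receptor of capillaries and macrophages, was one of the genes that set the capillary-like subset.

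The other genes of the pathway were read from 51 genes in 5 lists: other endothelin peptides and peptidases, receptor coupling and contraction, the nitric oxide and Gi arm, transcription factors known at Edn1, and other vasoactive receptors. In macrophages, 1 of the 29 with at least 20 UMIs was at least 2-fold higher in LysM-DKO on normal diet and 0 were lower, beside 6.55% and 2.39% of all genes, and the list median was -0.09 beside 0.05. On western diet 0 of 37 were higher and 4 lower, beside 4.1% and 9.1%, and the list median was -0.16 beside -0.05. In endothelial barcodes 3 of 42 were higher and 0 lower on normal diet, beside 3.59% and 1.17%, and 1 of 41 was higher and 2 lower on western diet, beside 2.89% and 4.48%. In fibroblasts the counts were 1 higher and 0 lower of 39 on normal diet, beside 2.85% and 1.54%, and 2 higher and 0 lower of 40 on western diet, beside 3.14% and 3.78%. In smooth muscle they were 4 higher and 0 lower of 49, beside 7.09% and 1.06%, and 1 higher and 4 lower of 49, beside 1.88% and 9.9%. These counts pool the 5 lists, were 0 to 4 genes each, and were not read as apart from all genes. Single lists held few measured genes and could lie further from all genes. In western diet macrophages the nitric oxide and Gi arm had a median of -0.57, with 0 of 7 above 0. All genes there had -0.05, with 4804 of 10418 above 0. On normal diet that list had a median of 0.13, with 5 of 7 above 0. Such list differences were not tested.

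Among the peptides, Edn2 had 134 UMIs over all kept barcodes, Edn3 35 and Kel 11, so Edn1 was the one endothelin gene measured with depth. Mme, the gene of neprilysin, which degrades endothelin-1, was in fibroblasts at 15.6, 24.9, 10.9 and 50.3 CPM from 46, 96, 43 and 168 UMIs, with genotype ratios of 0.66 (0.15 to 1.21) and 2.20 (1.72 to 2.73). Its endothelial level was 2.86, 6.20, 11.2 and 5.35 CPM, below the fibroblast level in all but the WT/ApoE-/- library. Ece2, a relative of Ece1, was at most 13.9 CPM in any of the 4 classes.

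Nos3, the endothelial nitric oxide synthase on which ETB acts, was in endothelial barcodes at 42.5, 51.1, 5.86 and 24.8 CPM, from 238, 297, 21 and 88 UMIs. Its genotype ratio was 0.27 (0.01 to 0.52) and 2.05 (1.38 to 2.84). The summed endothelial check markers were also lowest in the WT/ApoE-/- library (176 CPM against 262 CPM in LysM-DKO/ApoE-/-), and their part in the western diet ratio of Nos3 or Edn1 was not tested. Klf2, a flow-responsive factor that lowers Edn1 in cultured endothelium, was at 526, 453, 374 and 419 CPM and Klf4 at 951, 909, 537 and 682 CPM in the same class, with genotype ratios of -0.22 and 0.16 for Klf2 and of -0.07 and 0.35 for Klf4. Gata2, an activator of Edn1 transcription, was at 47.9, 50.5, 12.6 and 25.1 CPM, with ratios of 0.07 (-0.17 to 0.32) and 0.99 (0.46 to 1.55). Fos, a part of AP-1, was at 4129, 2666, 1813 and 2724 CPM.

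On the receiving side in smooth muscle, Mylk, the kinase that triggers contraction, was at 1124, 1007, 1164 and 1437 CPM and Gnaq, the Gq subunit to which ETA couples, at 72.0, 76.0, 84.2 and 94.6 CPM. The genotype ratios of Gnaq were 0.08 (-0.02 to 0.17) and 0.17 (0.10 to 0.24), smaller in size than those of Ednra. Itpr3, a calcium release channel, was at 8.34, 17.1, 7.39 and 1.61 CPM, with ratios of 1.04 (0.80 to 1.28) and -2.19 (-2.58 to -1.82), and Itpr2, another such channel, was at 29.0, 45.9, 20.2 and 7.06 CPM, with ratios of 0.66 (0.53 to 0.80) and -1.52 (-1.71 to -1.33). These channels were chosen for mention after their values were seen, out of 18 coupling and contraction genes whose median ratio was -0.05 and 0.05, with 8 and 10 of 18 above 0. Over all genes in smooth muscle, 2-fold differences were also mostly upward on normal diet (7.09% higher, 1.06% lower) and downward on western diet (1.88% and 9.9%). Agtr1a, a receptor of angiotensin II and another constrictor receptor, was at 0.775, 2.71, 0.659 and 1.03 CPM, with ratios of 1.78 (1.07 to 2.59) and 0.64 (-0.09 to 1.43). It is 1 of 12 other vasoactive receptors, whose median ratio was -0.11 and -0.03, with 4 and 6 of 12 above 0. Of these 12, 2 were at least 2-fold higher on normal diet, Agtr1a among them, and 0 on western diet. Of all genes in smooth muscle, 8517 of 15863 on normal diet and 7390 of 15620 on western diet had a ratio above 0.

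Between diets the values of both genotypes are given without a reading, since ApoE genotype, sex and diet differ together. Endothelial Ednrb was lower on western diet by log2 ratios of -1.85 (-2.54 to -1.27) and -2.89 (-3.52 to -2.35), with the WT pair of libraries first here and in the values that follow, beside 8.5% and 10.7% of genes at least 2-fold lower in that class. In single-match endothelial barcodes the same ratios were -0.68 (-1.55 to 0.11) and -0.34 (-1.10 to 0.32), not resolved from 0, and the capillary-like share of the class went from 27.1% to 12.7% and from 27.2% to 8.15%. Macrophage Ednrb stood at -1.98 and -1.15, beside 8.71% and 6.46% of genes at least 2-fold lower and a resident-like share of macrophages that went from 56.5% to 2.98% between the WT libraries and from 36.5% to 34.8% between the LysM-DKO libraries. Smooth muscle Edn1 stood at -1.13 (-1.25 to -1.0) and -0.51 (-0.64 to -0.38), beside 11.9% and 20% of genes at least 2-fold lower there.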

How the data were processed

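The deposited matrices hold raw counts of UMIs per gene and barcode, whole numbers without scaling, and the values checked were whole. Cell Ranger produced them, per the file headers, in version 6.0.1 where the diet was normal and 6.1.2 where it was western. The submitters' processing notes name Cell Ranger 6.1.2, Seurat 4.1.0 and mm10 for all. Strand use in counting is not given in the sources used here, so reads of overlapping antisense genes cannot be told apart.

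The 4 genes, the class rule, the gene lists and the alternatives were chosen with earlier results of these data known. Barcodes were kept from 1000 UMIs upward with a mitochondrial share of up to 10%, and none was removed as a doublet in the main values. An alternative removed the highest scrublet scores (scanpy 1.11.5), up to 0.8% per 1000 scored barcodes, which marked 758, 771, 1698 and 729 kept barcodes. UMIs were summed per library and class and divided by the class total (CPM), with exact Poisson intervals. Median kept depth was 2103 to 6761 UMIs. Ratios are log2 with 0.5 UMIs added and an exact binomial interval given the total. A count of 0 allows up to 3 counts. With 1 library per group there was no test. Counts over all genes used those with at least 20 UMIs over both libraries, and the ratio function was tested on simulated counts. Named beside the 4 genes were members of the lists with at least 100 UMIs over all kept barcodes (Edn3 and Kel, under that number, are named for their totals), subset and class markers, Lyz2, Apoe and Xist, and the 3 genes most like each of the 4. Alternatives changed the UMI and mitochondrial limits, the class thresholds, barcodes matching several classes, doublets, scaling, weighting, thinning and the UMIs added. Chosen after seeing the data were leaving out barcodes with the most or with 5 or more UMIs of the gene, subsets at WT shares, and the resident-like split without Lyve1. Computing used Python 3.11.15, numpy 2.4.6, scipy 1.17.1 and pandas 2.3.3.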

Additional observations from a re-analysis of the deposited data

Results flagged for a closer look

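Ednra in smooth muscle differed between genotypes in opposite directions on the 2 diets. The genotype ratio, log2 of LysM-DKO divided by WT, was 0.53 on normal diet and -0.57 on western diet. With 1 library per group the difference between these ratios was not tested.

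Ednrb in smooth muscle did so as well, with a log2 ratio of 2.30 on normal diet and -1.50 on western diet. This difference was not tested either, and it rests on 32, 133, 25 and 12 UMIs at a share of barcodes near that of T or NK cells.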

How the results depend on the processing

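The 14 genotype ratios were recomputed under 13 alternatives each, 182 values in all. Of these, 160 moved by less than the counting interval of the main value and 22 moved by more. No ratio with a main value of at least 2-fold changed sign, but several smaller ones did. Among those were endothelial Edn1 on normal diet (main value 0.04) and macrophage Ece1 on western diet (main value 0.17). The 22 shifts were as follows. Over single-match barcodes the ratio (log2, LysM-DKO divided by WT) was 3.08 for macrophage Ednrb on normal diet, -1.33 and 1.82 for endothelial Edn1 on normal and western diet, 0.45 for endothelial Ednrb on normal diet, 0.014 and 0.51 for endothelial Ece1 on normal and western diet, and -1.47 for macrophage Ece1 on western diet. With all barcodes weighted equally it was 3.43 for macrophage Ednrb, 0.16 for endothelial Ece1 and -0.60 for macrophage Ece1 on western diet, and 0.76 for endothelial Ednrb on normal diet. With barcodes thinned to 1000 UMIs it was 0.78 for endothelial Edn1 on western diet, and 0.46 for endothelial Ednrb and 0.44 for fibroblast Ednra on normal diet. With class thresholds doubled it was -0.22 for fibroblast Ednra and -0.29 for endothelial Ece1 on western diet. Without barcodes of 5 or more UMIs of the gene it was 0.23 and 0.78 for endothelial Edn1 on normal and western diet and -0.90 for macrophage Ece1 on western diet. With subsets at the WT shares it was 0.29 for macrophage Ednrb on western diet, and 0.85 for endothelial Ednrb and 0.16 for endothelial Ece1 on normal diet. The cause of these shifts was not tested, beyond what each setting leaves out. Smooth muscle Ednra stayed between 0.44 and 0.60 on normal diet and between -0.61 and -0.52 on western diet.

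No paired analysis was possible because each group had 1 library. Ednrb was limited most by its low counts, with 87 UMIs in the LysM-DKO/ApoE-/- library, although that library had the highest median depth (6761 UMIs). Subsets of 3 or 13 lymphatic-like barcodes give wide intervals.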
